A study of Mus musculus with 104 samples.

Results

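The course of gene expression from the epiblast at embryonic day 6.5 (E6.5) to the head at E8.5 was followed in mouse embryos without Kmt2b (genotype Kmt2b-/-, called KO). The RNA came from 5 KO samples (3 epiblasts and 2 heads) of 104 samples in the series. All genes that reached a minimum level in at least 1 of the 4 KO and WT columns were used, except 7 with doubtful zeros, as set out below. Small RNA genes and gene names turned into dates were also left out. The WT columns of the same stages, which hold 3 epiblast and 3 head samples, served as the reference. The series compared chromatin and RNA of lineages around gastrulation, and asked in its mutant embryos what changes when Kmt2b is lost. By the series design, the fathers were DBA2 and the mothers C57BL/6N mice, and the labels name no promoter, Cre or clone for the deletion. Heads were collected by cutting near the neck, so a head holds surface ectoderm, mesenchyme, vessels and blood beside neural tissue. Libraries were made from total RNA by Smart-seq2, a method for small amounts of RNA that copies polyadenylated RNA.

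Kmt2b encodes a methyltransferase that adds methyl groups to lysine 4 of histone H3, mostly at promoters rich in CpG dinucleotides. At E6.5 the epiblast is the tissue from which all lineages of the embryo proper arise, and it expresses the genes of primed pluripotency, such as Pou5f1, Nanog and Fgf5, together with Nodal and its co-factors and inhibitors. By E8.5 the neural plate of the head has turned these genes off and carries the transcription factors that divide it into forebrain, midbrain and hindbrain.

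The values were the FPKM deposited by the authors (fragments per kilobase of transcript, scaled to the mapped fragments of a library), with 1 merged column for each group. A course is the difference of log2(FPKM + 1) between head and epiblast of 1 genotype, so a course of -1 means 2-fold lower in the head on that scale, and it understates the change of genes near 0. With 1 column per group there is no spread between samples of a group and no p-value, and "fell" and "rose" here mean a difference of at least 2-fold and nothing more. In their place, the same course was computed for each of 6 pairs of single WT libraries (3 epiblasts with 2 heads) deposited in a second table of the series, that of embryos without Tet1 and Tet2. Its 3 WT epiblast libraries were taken to be those merged in the WT epiblast column, while its 2 WT heads are separate samples. Depth is unknown, because no read counts stand behind the FPKM used here.

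Wbp7, the name under which the table lists Kmt2b, was at 0.701 FPKM in the WT epiblast, 0.308 in the KO epiblast, 0.6003 in the WT head and 0.133 in the KO head. The 9 single libraries of the second table, none of them from Kmt2b KO embryos, held 0.464 to 1.13 FPKM. KO columns were lower than WT columns at both stages, at levels too low to carry weight. The related Mll1 was at 1.41, 1.84, 1.29 and 1.74 FPKM in the same order. Defining markers fitted the labelled tissues in both genotypes: Pou5f1 stood at 245 and 451 FPKM in the WT and KO epiblast, and Hesx1, an early forebrain factor, at 69.4 and 64.96 FPKM in the WT and KO head. Sexes were unequal between columns. Xist is expressed from the inactive X chromosome of females. It was at 0.0954 FPKM in the WT epiblast, 2.01 in the KO epiblast, 9.17 in the WT head and 6.23 in the KO head. Ddx3y, on the Y chromosome, was at 21.9, 12.6, 2.21 and 7.12 in the same order. Y-linked genes are therefore named below only as such. Other genes of the X chromosome were not set apart, and the part of sex in their levels was not tested. Magohb, a component of the exon junction complex, was listed at 0 in the KO head against 63.9 FPKM in the WT head, and was left out with 6 other genes whose zeros were doubtful in the same way.

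The promoters of 4 genes on which the results turn are shown first, since Kmt2b is known for its binding to CpG-rich promoters. Cyp26a1, an enzyme that breaks down retinoic acid, is the gene with the widest gap among the epiblast genes that did not go down, and Aldh1a2, which makes retinoic acid, is among the head genes that did not come up. Nanog is a pluripotency factor that fell less without Kmt2b, and Fezf1 a forebrain factor that rose less. Each window runs from 250 bases before to 50 bases after the first listed gene start in RefSeq (GRCm38.p6), is given 5′ to 3′ on the gene's strand, and has every CpG in capitals.
Cyp26a1: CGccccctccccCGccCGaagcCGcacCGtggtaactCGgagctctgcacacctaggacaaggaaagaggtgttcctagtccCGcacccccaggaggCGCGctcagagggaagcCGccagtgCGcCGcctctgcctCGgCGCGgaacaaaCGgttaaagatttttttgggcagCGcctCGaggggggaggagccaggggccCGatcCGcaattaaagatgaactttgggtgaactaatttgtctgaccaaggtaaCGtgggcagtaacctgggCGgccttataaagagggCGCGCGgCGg
Aldh1a2: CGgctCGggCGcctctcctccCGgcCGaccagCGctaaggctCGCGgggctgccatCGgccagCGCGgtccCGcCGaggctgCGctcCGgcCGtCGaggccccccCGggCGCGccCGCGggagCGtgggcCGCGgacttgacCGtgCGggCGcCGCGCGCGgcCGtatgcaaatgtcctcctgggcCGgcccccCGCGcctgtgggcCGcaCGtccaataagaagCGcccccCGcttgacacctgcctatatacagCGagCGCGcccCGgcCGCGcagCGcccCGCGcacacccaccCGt
Nanog: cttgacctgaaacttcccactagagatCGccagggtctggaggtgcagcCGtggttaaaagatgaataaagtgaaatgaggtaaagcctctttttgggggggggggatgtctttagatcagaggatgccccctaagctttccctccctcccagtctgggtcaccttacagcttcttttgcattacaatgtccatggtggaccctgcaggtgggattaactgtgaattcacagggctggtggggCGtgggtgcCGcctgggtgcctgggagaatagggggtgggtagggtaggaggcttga
Fezf1: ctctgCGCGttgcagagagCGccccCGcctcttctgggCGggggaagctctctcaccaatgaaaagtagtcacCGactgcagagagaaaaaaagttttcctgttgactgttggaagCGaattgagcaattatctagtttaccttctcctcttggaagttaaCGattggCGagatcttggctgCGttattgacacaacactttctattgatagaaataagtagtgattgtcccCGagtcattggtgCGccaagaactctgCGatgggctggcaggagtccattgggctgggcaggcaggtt
The Cyp26a1 window (chr19:37697558-37697857, plus strand) held 26 CpGs, a number reached by 34.98% of the measured genes with a promoter in the table. The Aldh1a2 window (chr9:71215539-71215838, plus strand) held 50, reached by 1.73% of them, and the Nanog window (chr6:122707239-122707538, plus strand, the first of 2 listed) only 4, reached by 96.6%. The Fezf1 window (chr6:23248215-23248514, minus strand) held 13, reached by 79.6%. These 4 promoters span nearly the whole range of CpG content (median of all genes 21, quartiles 14 and 29), in both directions of change. CpG content was not compared between the classes of genes below, because RefSeq promoters were matched for 73.7% of the epiblast genes that did not go down and 67.7% of the head genes that rose less, against 80.3% of all genes.

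Without Kmt2b, a small majority of the 2-fold changes seen in WT between epiblast and head also reached 2-fold. The genes counted, 11214 in all, reached 1 FPKM in 1 or more of the 4 columns, and 779 (6.95%) rose and 789 (7.04%) fell at least 2-fold in the KO course, beside 809 (7.21%) each way in the WT course. Both courses fell for 444 genes, which is 56.3% of the KO calls and 54.9% of the WT calls, and both rose for 465 (59.7% and 57.5%). Only 7 genes fell in WT and rose in KO, 1 of them (Gal) under 5 FPKM in all 4 columns, and 13 did the opposite. The largest falls in the KO course were those of pluripotency and early streak genes. Tdgf1, the Nodal co-receptor, went from 147 FPKM in the KO epiblast to 0.760 in the KO head, Utf1 from 429 to 4.58 and Mixl1, a primitive streak factor, from 67.3 to 0.0317. Dppa5a, Psors1c2, Pou5f1, L1td1, Sycp3, Dppa4 and Sgk1 followed, with KO courses of -5.64 to -4.13. The largest rise was that of a transcript listed as NR_102727, with a KO course of 5.77. RefSeq assigns it to Ldha, whose own entry had a KO course of 0.82. The single WT heads held 115 and 11.4 FPKM of NR_102727, so its level is uncertain. Next came Hesx1 (1.44 to 64.96 FPKM), Ptn, a secreted growth factor (1.25 to 54.7), and Crabp1, a carrier of retinoic acid (5.91 to 163). Spink3, Id2, Greb1l, H2afy, Ifitm1 and Bmp5, a secreted signal of the BMP family, also rose, by 4.03 to 4.54 on the log2 scale.

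**Figure D1:**
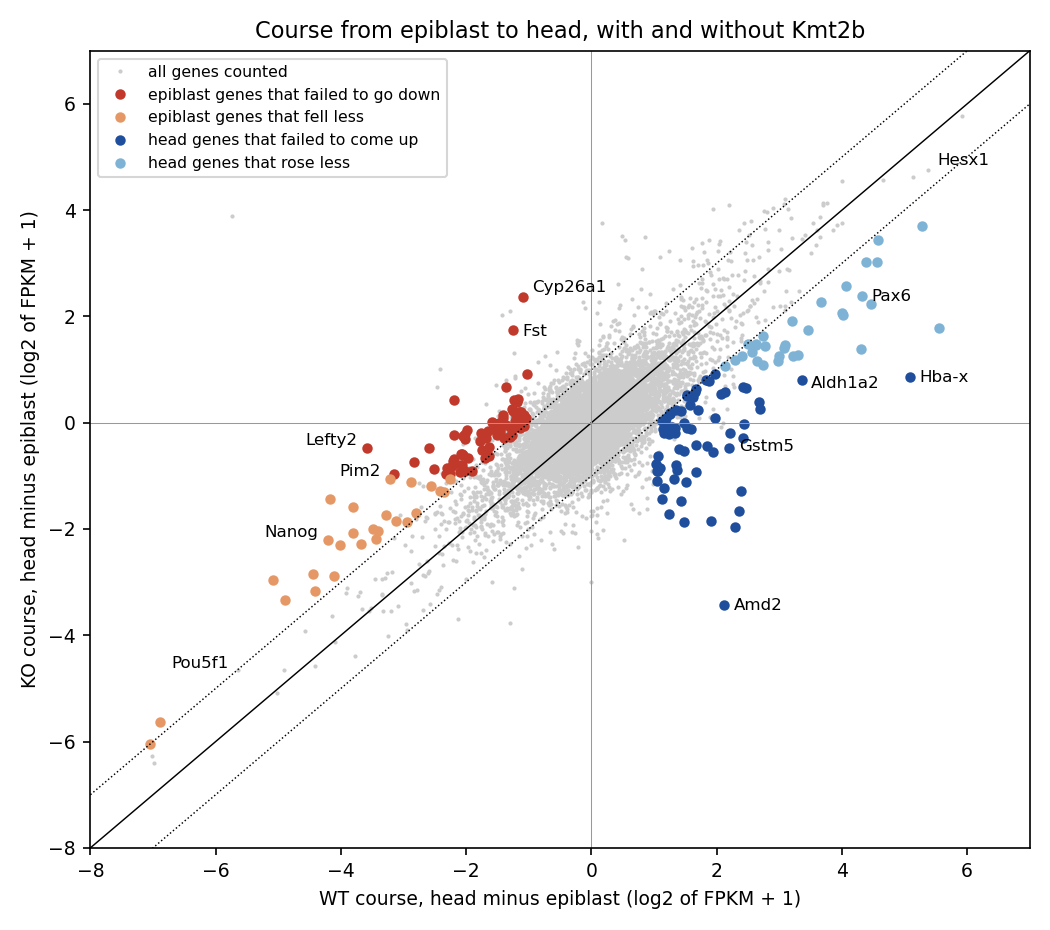
Each point is 1 of 11214 genes, with the WT course on the x axis and the KO course on the y axis, both as head minus epiblast on the scale of log2(FPKM + 1). The solid line marks equal courses and the dotted lines a 2-fold gap between them. Red and orange points above the upper dotted line are epiblast genes that failed to go down (76) or fell less (26), dark and light blue points below the lower one head genes that failed to come up (65) or rose less (31).

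The scatter of courses also shows where the genotypes part. Epiblast genes were defined as those with at least 5 FPKM in the WT epiblast and a WT course at least 2-fold down, which gave 486 genes, of which 442 were also at 5 FPKM or more in the KO epiblast. Of these, 224 fell alike in the KO (courses less than 2-fold apart), 26 fell but at least 2-fold less, and 76 failed to go down, meaning that the KO course was less than 2-fold down and at least 2-fold above the WT course. The 76 are 17.2% of the 442 and 0.678% of all genes. The other 116 lay between these classes. Of 481 head genes, with at least 5 FPKM in the WT head and a WT course at least 2-fold up, 277 rose alike in the KO, 31 rose at least 2-fold less, and 65 failed to come up (13.5% of the head genes, 0.58% of all genes), with 108 in between. Over all genes, the KO course was at least 2-fold above the WT course for 3.73% and below it for 3.63%.

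Such counts have a background of their own, since the WT columns chose the genes. With the genotypes exchanged, so that the KO columns chose, 57 genes (0.508%) fell in the KO course and not in the WT course, and 62 (0.553%) rose in the KO course and not in the WT course. Both are near the 76 and 65 of the failing classes, so the sizes of the classes alone do not set the KO apart. A second count avoided this choice. Epiblast and head genes were picked from the single WT libraries of the second table, and the KO head column was then set against the merged WT head column, which had no part in the choice. Of 542 epiblast genes picked in this way, the KO head was at least 2-fold above the WT head for 117 (21.6%) and 2-fold below it for 9 (1.66%), with a median difference of 0.50 on the log2 scale (quartiles 0.11 and 0.90). Over all genes these shares were 2.22% and 2.51%, and the median 0.00. Of 538 head genes, the KO head was 2-fold below the WT head for 100 (18.6%) and above it for 12 (2.23%), with a median of -0.34 (quartiles -0.79 and 0.04). At the epiblast stage fewer of the same genes differed, and the medians were small. The KO epiblast was 2-fold above the WT epiblast for 5 (0.923%) and below it for 13 (2.40%) of the 542 epiblast genes (median -0.05). It was above for 22 (4.09%) and below for 10 (1.86%) of the 538 head genes (median -0.01). Over all genes it was above for 1.23% and below for 0.704%, so the shares of 2.40%, 4.09% and 1.86% exceeded those of all genes. The WT epiblast libraries used for the choice are also part of the merged WT epiblast column, so the epiblast comparison is not independent of it. Heads without Kmt2b thus held more RNA of epiblast genes and less RNA of head genes than the WT heads. Whether cells of an earlier kind were more frequent or each cell held more of these RNAs cannot be told apart in bulk tissue.

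Single WT heads gave a measure of how far WT heads differ in the epiblast and head genes defined from the merged WT columns. Between the 2 WT heads of the second table, 18 of the 486 epiblast genes (3.70%) were at least 2-fold higher in replicate 2 and 9 (1.85%) lower, and 11 (2.29%) of the 481 head genes were higher and 15 (3.12%) lower, beside 0.624% and 0.571% of all genes. The median differences were 0.12 for epiblast genes and -0.10 for head genes. These have the same signs as the medians of the KO head, 0.50 and -0.34, and are smaller. The KO medians were taken over the other choice of genes (542 and 538), and the 2 tables were normalized apart. In heads without Tet1 and Tet2, 38 (7.82%) of the 486 epiblast genes were 2-fold above those WT heads and 14 (2.88%) below, with a median of 0.00, and 9 (1.87%) of the 481 head genes were above and 32 (6.65%) below, with a median of -0.07.

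The pluripotency genes went down in the KO head, but several stopped short of the WT level. Of 30 measured genes of formative and primed pluripotency, 20 fell and 2 rose in the KO course, against 19 and 2 in the WT course, and the median course was -1.92 in KO and -1.88 in WT (median of all genes 0.00 and 0.01). None of the 30 failed to go down, 11 fell alike and 4 fell less. These 4 are Fgf5, a growth factor of the primed epiblast, Slc7a3, an arginine transporter, Nanog and Pim2, a survival kinase. Nanog was at 46.8 FPKM in the WT epiblast, 41.9 in the KO epiblast, 1.59 in the WT head and 8.27 in the KO head. In the single libraries it was at 38.3, 50.1 and 57.8 FPKM in the WT epiblasts and at 0.482 and 2.93 in the WT heads, so the KO head lay above both WT heads and far below every epiblast. Pim2 kept the most RNA. Its level was 508 and 453 FPKM in the WT and KO epiblast, 54.0 in the WT head and 218 in the KO head, so that 48.0% of the KO epiblast level and 10.6% of the WT epiblast level remained. The single WT heads held 32.9 and 89.5 FPKM of it. Fgf5 was at 1.70 FPKM in the WT head and 6.94 in the KO head, and Slc7a3 at 3.63 and 16.6, from nearly equal levels in the epiblasts (79.2 and 79.2, 155 and 137).

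Pou5f1, the central factor of this network, fell alike by the 2-fold rule, with a gap between courses of 0.99, just under it. It stood at 3.91 FPKM in the WT head and 16.9 in the KO head, against 1.42 and 5.24 in the single WT heads, and its KO course of -4.66 lay above the range of the 6 WT pairs (-6.78 to -5.17). Dnmt3b, which sets DNA methylation in the epiblast, was at 55.2 and 93.4 FPKM in the WT and KO heads. Trh, a hormone precursor expressed in the epiblast, had the opposite order, with 14.8 FPKM in the WT head and 3.71 in the KO head. Of the epithelial genes of the epiblast, Cdh1 (E-cadherin) was at 3.01 and 15.3 FPKM and Epcam at 26.7 and 80.6 in the WT and KO heads, and both fell less. In all, 23 of the 26 genes that fell less were at least 2-fold higher in the KO head than in the WT head. A KO course above all 6 WT pairs was seen for 22. The gap that defines this class favours both counts.

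Nodal signalling maintains the epiblast and patterns it before gastrulation, and fewer of its genes fell in the KO course. Of 16 measured, 10 fell in the WT course and 5 in the KO course, 1 rose in WT and 2 in KO, and the median course was -1.18 in WT and 0.08 in KO. Lefty2, a secreted Nodal inhibitor that Nodal itself induces, was at 17.4 FPKM in the WT epiblast, 11.7 in the KO epiblast, 0.532 in the WT head and 8.20 in the KO head. It was at 9.33 to 27.3 FPKM in the single WT epiblasts and at most 0.0120 in the single WT heads, so the KO head was near the lowest WT epiblast. Foxh1, the transcription factor through which Nodal acts, was at 87.7, 85.1, 20.4 and 55.8 FPKM in the same order, and it too failed to go down, although the single WT heads ranged from 13.4 to 40.7 FPKM. Nodal itself fell less, from 21.3 FPKM in the KO epiblast to 2.11 in the KO head, where the WT head held 0.209. Lefty1 was at 0.153 FPKM in the WT head and 4.13 in the KO head, Cer1, another secreted inhibitor, at 0.290 and 3.35, and Cfc1, a Nodal co-receptor, at 1.95 and 12.9. The last 2 were lower in the KO epiblast (1.74 and 2.27 FPKM) than in the WT epiblast (6.13 and 6.24), and so were not among the 442 genes. Lefty2 and Nodal are also transcribed in the left side of the mesoderm at later stages. Which cells of the head gave the RNAs of Lefty1, Lefty2 and Nodal was not tested.

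**Figure D2:**
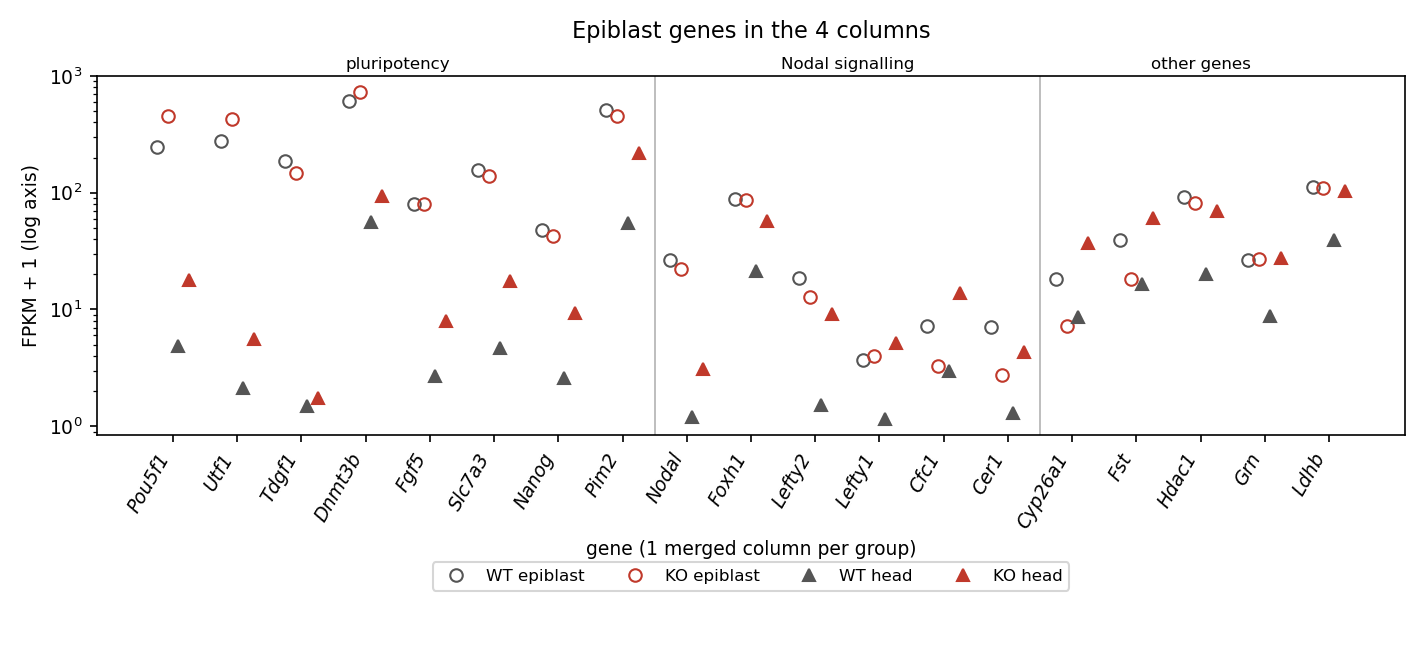
Levels of 19 genes in the 4 merged columns, as FPKM + 1 on a log axis, with open circles for epiblasts, filled triangles for heads, grey for WT and red for KO. For Nanog, Pim2, Hdac1 and Ldhb the epiblast circles nearly coincide while the red triangle stands well above the grey one.

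Most genes that failed to go down were higher in the KO head than in the WT head. Of the 76, the KO head was at least 2-fold above the WT head for 57, while the KO epiblast was at least 2-fold below the WT epiblast for only 2, both of them among the 57, and 19 reached neither. The class required at least 5 FPKM in the KO epiblast, which left out 44 epiblast genes with a median KO minus WT epiblast difference of -0.57, so the low count at the epiblast stage is in part set by the rule. The gap between courses is the head difference minus the epiblast difference, so the count of 57 is in part set by the rule too. The median course of the 76 was -0.15 in KO and -1.51 in WT. The KO course lay above all 6 WT pairs for 74 of them, and at least 2-fold above all 6 for 42. The required gap favours these counts as well. Without 12 genes set aside by name patterns as copies or clone names and 2 on the Y chromosome, 62 remained. Of these 62, 31 were 2-fold above all 6 pairs. Sequences were not compared, and accession names such as NM_001278075 remain among the 62. Cyp26a1 and Fst rose at least 2-fold instead. Cyp26a1 was at 17.4 FPKM in the WT epiblast, 6.17 in the KO epiblast, 7.58 in the WT head and 36.0 in the KO head. It varied from 7.44 to 33.2 FPKM among the single WT epiblasts, whereas the single WT heads held 5.79 and 8.42, so the KO head was above every WT library. Fst, which encodes the activin inhibitor follistatin, was at 38.7, 17.2, 15.6 and 59.9 FPKM in the same order, and at 19.5 and 21.9 in the single WT heads.

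Hdac1, a histone deacetylase present in all cells, kept 84.7% of its epiblast level in the KO head, with 68.2 FPKM, and 21.0% in the WT head, with 19.01 FPKM. The single WT libraries were tight, with 92.4 to 95.6 FPKM in the epiblasts and 8.38 and 8.78 in the heads. Heads without Tet1 and Tet2 had 49.3 and 55.9 FPKM, so high head levels were seen in both mutants. Grn, which encodes progranulin, stayed at 26.0 and 26.5 FPKM in the KO epiblast and head while the WT head held 7.81. Ldhb, a lactate dehydrogenase subunit, was at 109 FPKM in the KO epiblast and 103 in the KO head, against 111 and 38.4 in WT, and was named after its values were seen. Among the others with the widest gaps were the glutamate transporter Slc1a3, the fatty acid carrier Fabp3, the phosphatase Acp1, the tetraspanin Cd151, the uridine phosphorylase Upp1 and the sorbitol dehydrogenase Sord, with Fggy, Ms4a4d, Zfp874a and Zfand1. Their gaps between courses ran from 1.56 to 2.04. Gm7334, Gm13157 and 4930500J02Rik carry only clone or predicted names, and Eif2s3y and Ddx3y are Y-linked. At the threshold, Ell3, Nek7 and Tomm34 lay just inside (gaps of 1.003, 1.009 and 1.02) and Atp5l, Hpn and Asah1 just outside (0.999, 0.996 and 0.992).

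Further members came from several lists. Meg3, a maternally expressed imprinted RNA, was at 10.5, 9.65, 4.18 and 11.3 FPKM (WT epiblast, KO epiblast, WT head, KO head), and the cholesterol enzyme gene Fdps at 52.1, 58.8, 19.104 and 47.7. Of 18 genes of the p53 response and apoptosis, Phlda3 and Ccng1 failed to go down, with KO courses of -0.96 and -0.67 and gaps of 1.30 each. Of 83 cytosolic ribosomal protein genes, 22 fell in the WT course and 8 in the KO course (medians -0.60 and -0.27), and Rpsa, Rps18 and Rpl5 were among those that failed to go down. Ribosomal protein genes have many processed copies, so their values are uncertain.

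**Figure D3:**
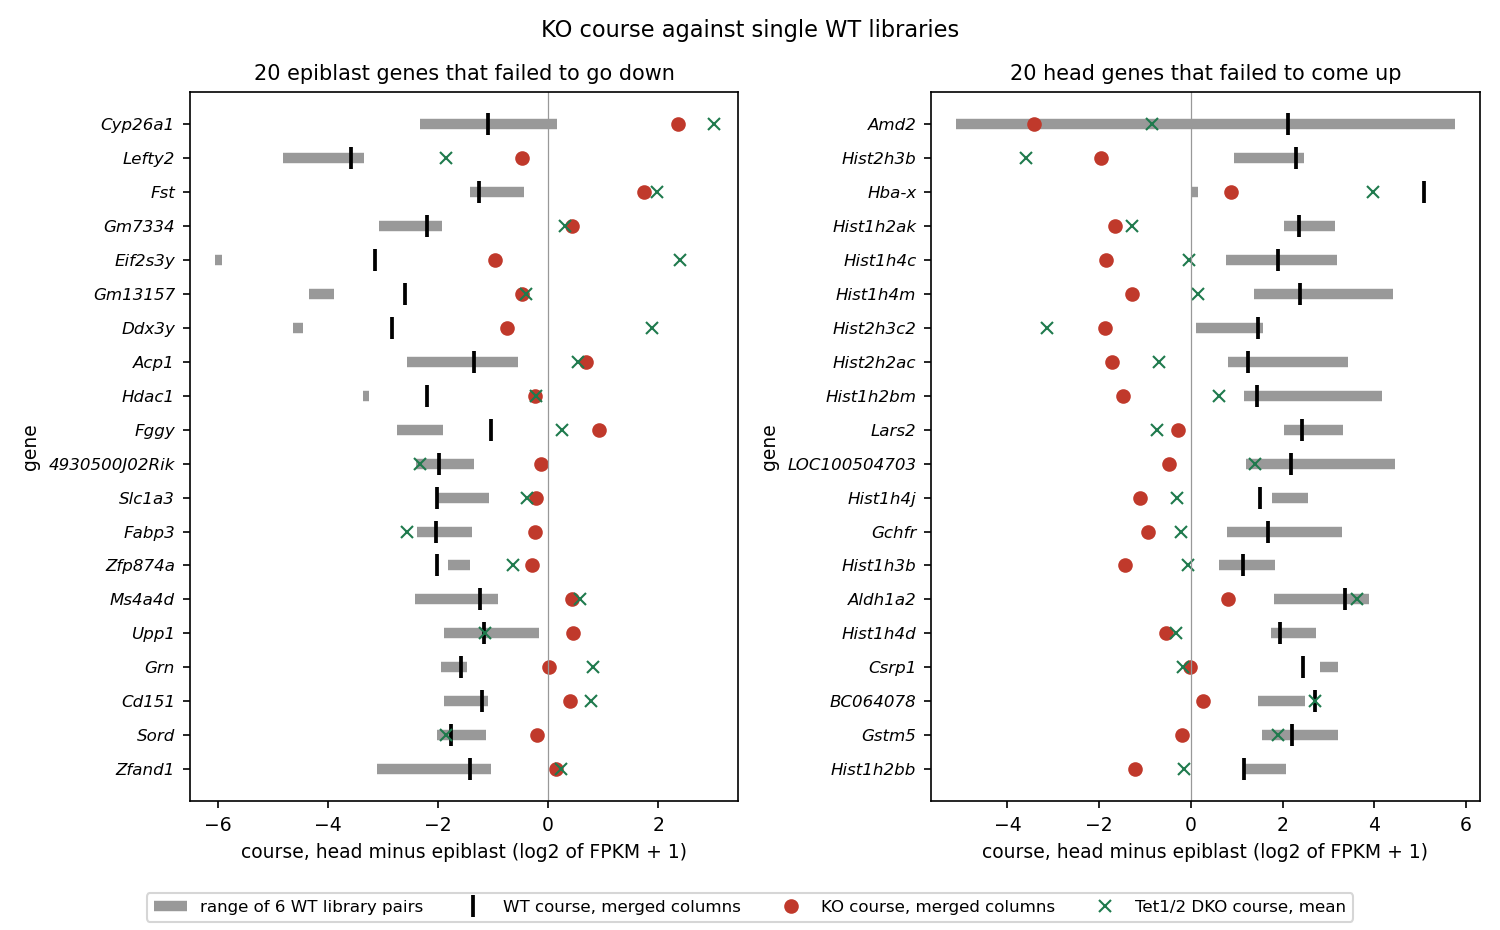
Courses of the 20 named genes in each failing class, as head minus epiblast on the log2(FPKM + 1) scale. The genes were chosen by the gap between the merged courses. Grey bars span the 6 pairs of single WT libraries, black ticks are the merged WT columns, red dots the merged KO columns and green crosses the mean of the Tet1/2 double knockout. Red dots lie to the right of the grey bar in all 20 rows on the left, and to its left on the right side except for Amd2, which lies inside its wide bar, and Hba-x, which lies above it.

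The plot against the single WT libraries includes the double knockout of Tet1 and Tet2 (DKO), enzymes that oxidise 5-methylcytosine. This course has 2 epiblast and 2 head libraries and was normalized apart from the Kmt2b table. Over all 11214 genes, 1319 fell and 1444 rose at least 2-fold in the DKO course (median 0.00). Of the 76 genes that failed to go down without Kmt2b, 25 fell at least 2-fold in the DKO course (median -0.27). Of the 224 that fell alike 172 did (median -1.82), and of the 26 that fell less 22 did (median -2.87). Of the 65 head genes that failed to come up without Kmt2b, 20 rose in the DKO course (median 0.23). Of the 277 that rose alike 220 did (median 1.88), and of the 31 that rose less 29 did (median 2.96). Both DKO epiblasts held little Cyp26a1 (0.105 and 0.279 FPKM) and Fst (3.91 and 2.48), so the DKO rises of these genes start from epiblasts unlike the WT.

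Head genes rose to different degrees, and several of those that rose less mark the forebrain. Of 16 measured genes of the forebrain and eye field, 15 rose in the WT course and 11 in the KO course, and the medians were 2.81 and 1.57. None failed to come up by the rule, 6 rose at least 2-fold less and 5 rose alike. Pax6, the eye and forebrain factor, was at 0.0222 FPKM in the WT epiblast, 0.0688 in the KO epiblast, 19.5 in the WT head and 4.59 in the KO head. The single WT heads had 20.7 and 12.6, both above the KO head. Rax, needed for the eye field, was at 7.77 FPKM in the WT head and 1.56 in the KO head, Lhx2 at 7.68 and 1.77, and Otx1 at 22.8 and 6.58. Fezf1 reached 23.1 and 7.13 FPKM, and Mab21l2 6.87 and 2.89. The KO head thus held 20.01% to 42.0% of the WT head level of these 6 genes, and the KO course of each was below all 6 WT pairs. These 6 were classed by the gap between courses, which favours both. Six6 and Fezf2 were at 2.24 and 2.13 FPKM in the WT head and at 0.223 and 0.371 in the KO head, too low in WT to count as head genes.

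Other genes of the same region rose as in WT. Hesx1 stood at 69.4 FPKM in the WT head and 64.96 in the KO head, Lhx5 at 10.6 and 13.8, Sfrp1, a secreted Wnt inhibitor, at 12.4 and 12.3, and Sp8 at 25.3 and 17.2. Six3 was at 5.45 and 3.10. Gaps between the courses of the forebrain list ranged from 0.21 above the WT course (Lhx5) to 1.94 below it (Pax6).

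**Figure D4:**
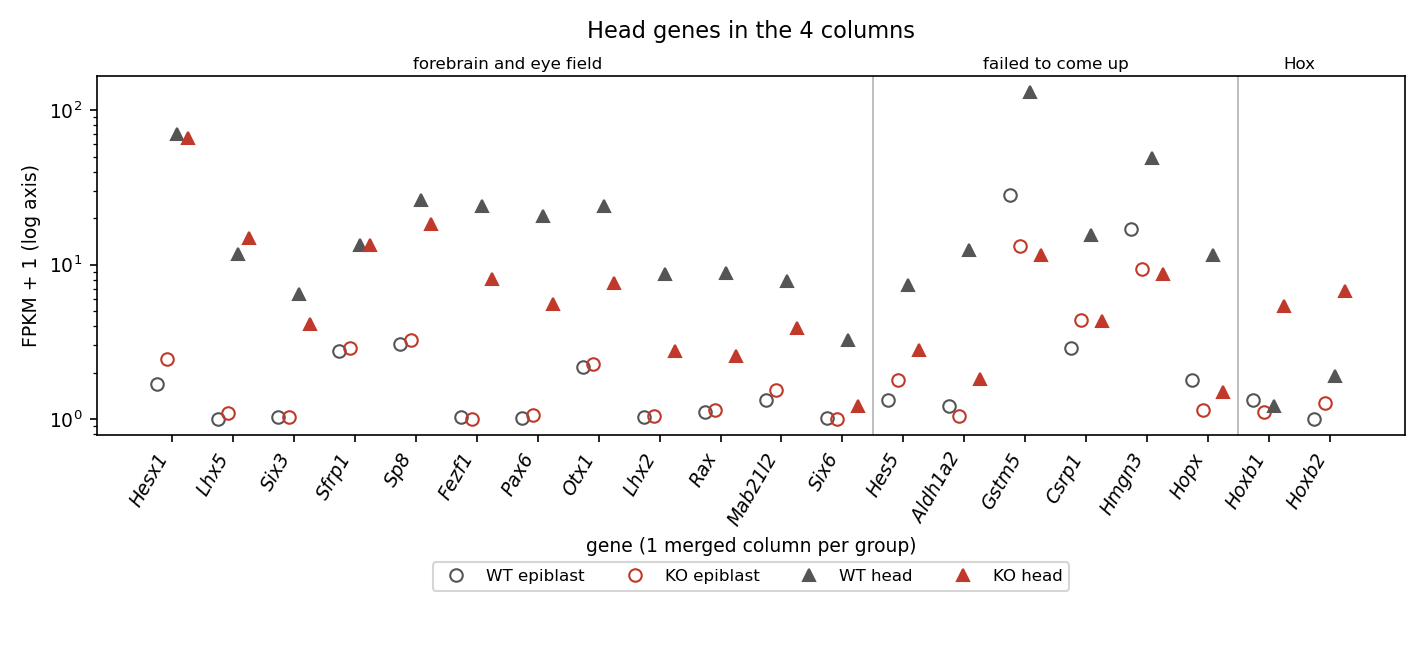
Levels of 20 genes in the 4 merged columns, as FPKM + 1 on a log axis, with open circles for epiblasts, filled triangles for heads, grey for WT and red for KO. Fezf1 to Six6 and all 6 genes that failed to come up have the red triangle below the grey one, whereas Hesx1, Lhx5 and Sfrp1 have them close together and both Hox genes have red above grey.

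Genes of more posterior regions were at or above the WT level in part. Of 17 genes that pattern the midbrain and hindbrain, 12 rose and 1 fell in both courses, with medians of 1.93 in KO and 1.77 in WT. Egr2, a marker of hindbrain segments, was at 0.513 FPKM in the WT head and 5.38 in the KO head, and Fgf15 at 39.7 and 143, while Pax8 (9.43 and 2.96) and Fgf17 (3.56 and 0.795) were lower in the KO head. Of 4 measured Hox genes, all 4 rose in the KO course against 1 in the WT course. Hoxb1 was at 0.223 FPKM in the WT head and 4.39 in the KO head, Hoxb2 at 0.911 and 5.78 and Hoxa2 at 1.05 and 1.44. The single WT heads held 0 and 0.595 FPKM of Hoxb1, so the KO head was above both. Heads were separated by a cut near the neck, and where the cut fell in each embryo is not recorded. Its part in the levels of Hox genes, Egr2 and Cyp26a1 was not tested.

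Retinoic acid genes included a member of each failing class. Aldh1a2, the enzyme that makes retinoic acid in the embryo, was at 0.207 FPKM in the WT epiblast, 0.0476 in the KO epiblast, 11.4 in the WT head and 0.823 in the KO head. The single WT heads had 14.97 and 4.14 FPKM and the DKO heads 11.4 and 14.1, so the KO head was below all 4, at 7.23% of the merged WT head. Cyp26a1, which removes retinoic acid, was 475% of the WT head level. Of the 14 genes of this list, 8 rose in the KO course and 7 in the WT course, with medians of 1.53 and 0.86. The carriers Crabp1 (278 and 163 FPKM in the WT and KO heads) and Crabp2 (406 and 273) rose strongly in both, with Crabp2 in the class that rose less, and the receptor gene Rxrg (3.10 and 10.8) was higher in the KO head.

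Of 27 neural progenitor genes, 15 rose and 1 fell in the KO course, against 18 and 0 in the WT course, with medians of 1.44 and 1.95. Hes5, a target of Notch signalling that keeps neural progenitors undivided in fate, failed to come up. It was at 0.337, 0.787, 6.41 and 1.82 FPKM (WT epiblast, KO epiblast, WT head, KO head), and the single WT heads had 13.2 and 4.007. Hes3, a related factor, rose less, to 11.97 FPKM in the KO head against 37.6 in the WT head. Sox2 (8.30 and 8.25), Vim (36.4 and 34.3), Sox9 (19.3 and 21.0), Fabp7 (14.9 and 19.4) and Pax3 (6.95 and 6.23) were at like levels in the WT and KO heads. Nr2f2 (5.83 and 1.91), Nr2f1 (5.32 and 2.70) and Sox1 (3.49 and 1.70) were lower in the KO head, and Ncam1 (1.64 and 4.83) was higher. By class, 1 of the 27 failed to come up, 2 rose less and 10 rose alike. The KO course was at least 2-fold below the WT course for 4 and above it for 0.

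Of the 65 genes that failed to come up, 21 belong to the histone gene clusters, whose messages mostly lack poly(A) tails and whose copies are nearly identical in sequence. Of 61 such genes measured, 21 rose and 3 fell in the WT course and 0 rose and 24 fell in the KO course, with medians of 0.65 and -0.90. They were both higher in the KO epiblast (21 at least 2-fold above WT, median 0.85) and lower in the KO head (23 at least 2-fold below WT, 1 above, median -0.79). Hist1h4d, the most abundant of those named, was at 182, 369, 706 and 253 FPKM (WT epiblast, KO epiblast, WT head, KO head). Hist2h3b (6.04, 37.4, 33.7 and 8.82), Hist1h4c (8.30, 35.2, 33.8 and 9.06) and Hist2h2ac (13.5, 39.3, 33.2 and 11.2) fell in the KO course while they rose in the WT course. Hist1h2ak, Hist1h4m, Hist2h3c2, Hist1h2bm, Hist1h4j, Hist1h3b and Hist1h2bb did the same, with gaps of -4.02 to -2.39. In the DKO course 1 of the 61 rose and 6 fell (median -0.22). The list of 17 replication licensing genes had median courses of 0.04 in KO and 0.16 in WT, and none of them moved 2-fold. How much the capture of RNA without poly(A) tails differed between libraries was not tested. LOC100504703 carries only a predicted name. Amd2, with a near-identical copy in Amd1, went from 48.1 to 3.55 FPKM in the KO, but its course in the single WT pairs ran from -5.13 to 5.75.

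Of the 44 other genes that failed to come up, 37 were left when copies and clone names were set aside by name patterns. Sequences were not compared, and accession names such as BC064078 remain among the 37. Of these 37, 14 had KO courses at least 2-fold below all 6 WT pairs, which the gap that defines the class favours. Gstm5, a glutathione transferase, was at 27.3, 12.2, 130 and 10.6 FPKM (WT epiblast, KO epiblast, WT head, KO head), so it was low in both KO columns and rose only in WT. The single WT heads held 202 and 110 FPKM and the DKO heads 106 and 84.6, and the KO head was far under all of them. Csrp1, an actin-associated LIM protein gene, was at 1.88, 3.40, 14.6 and 3.33 FPKM, with 21.5 and 22.3 in the single WT heads. The DKO heads held 1.76 and 1.93 FPKM of Csrp1, so low head levels were seen in both mutants. Lars2, the mitochondrial leucyl-tRNA synthetase gene, was at 47.7, 114, 261 and 94.0 FPKM. Gchfr, which regulates the enzyme that starts the synthesis of tetrahydrobiopterin, was at 1.43, 3.57, 6.76 and 1.40 FPKM, and BC064078 at 0, 0, 5.49 and 0.203. Hmgn3, a nucleosome binding protein gene, was at 16.1, 8.35, 48.1 and 7.73 FPKM and Hopx at 0.7996, 0.153, 10.5 and 0.501, both named after their values were seen. For the class of 65, the KO head was at least 2-fold below the WT head for 46. The KO epiblast was 2-fold above the WT epiblast for 19, both held for 13 and neither for 13. The gap that defines the class favours the first 2 of these counts. At the threshold, Pkia, Prelid2 and H2-Ke6 lay just inside (-1.01, -1.02 and -1.04) and Tmem218, Mapk12 and Rgs2 just outside (-0.999, -0.999 and -0.992).

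Red cell genes, which are not made by neural tissue, also differed between the heads. Of 4 measured red cell genes, the embryonic globin gene Hba-x failed to come up (33.02 FPKM in the WT head, 0.820 in the KO head) and Hbb-bh1 (45.9 and 2.45) and Hbb-y (18.8 and 1.61) rose less, whereas the other member, Blvrb, a biliverdin reductase gene, fell alike and was at 4.91 and 8.96 FPKM in the WT and KO heads. The single WT heads of the second table held at most 0.111 FPKM of each of these 3 globin genes, less than the KO head, and 1 DKO head held 109 FPKM of Hba-x and the other 1.23. Globin levels thus also differed widely between the 2 DKO heads, and the part of blood content in the KO course was not tested. The endothelial list (13 genes, 5 up in KO and 7 in WT, medians 0.65 and 1.03) and the heart muscle list (13 genes, 11 up in both, medians 2.60 and 1.85) had like numbers in both courses. Neural crest and cranial mesenchyme genes rose in equal number (16 of 21 in each course, medians 1.72 and 1.79), though Sox10 (3.23 and 0.389 FPKM in the WT and KO heads), Tfap2b (2.86 and 0.200) and Ets1 (4.85 and 1.59) were lower in the KO head, and Twist1 (1.14 and 3.07), Pdgfra (1.30 and 3.52) and Snai2 (4.57 and 6.61) were higher. Markers of visceral endoderm (8 measured, summed at 9.81 FPKM in the WT epiblast and 5.70 in the KO epiblast) and extraembryonic ectoderm (6 measured, 3.84 and 4.24) were low in both epiblasts.

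**Figure D5:**
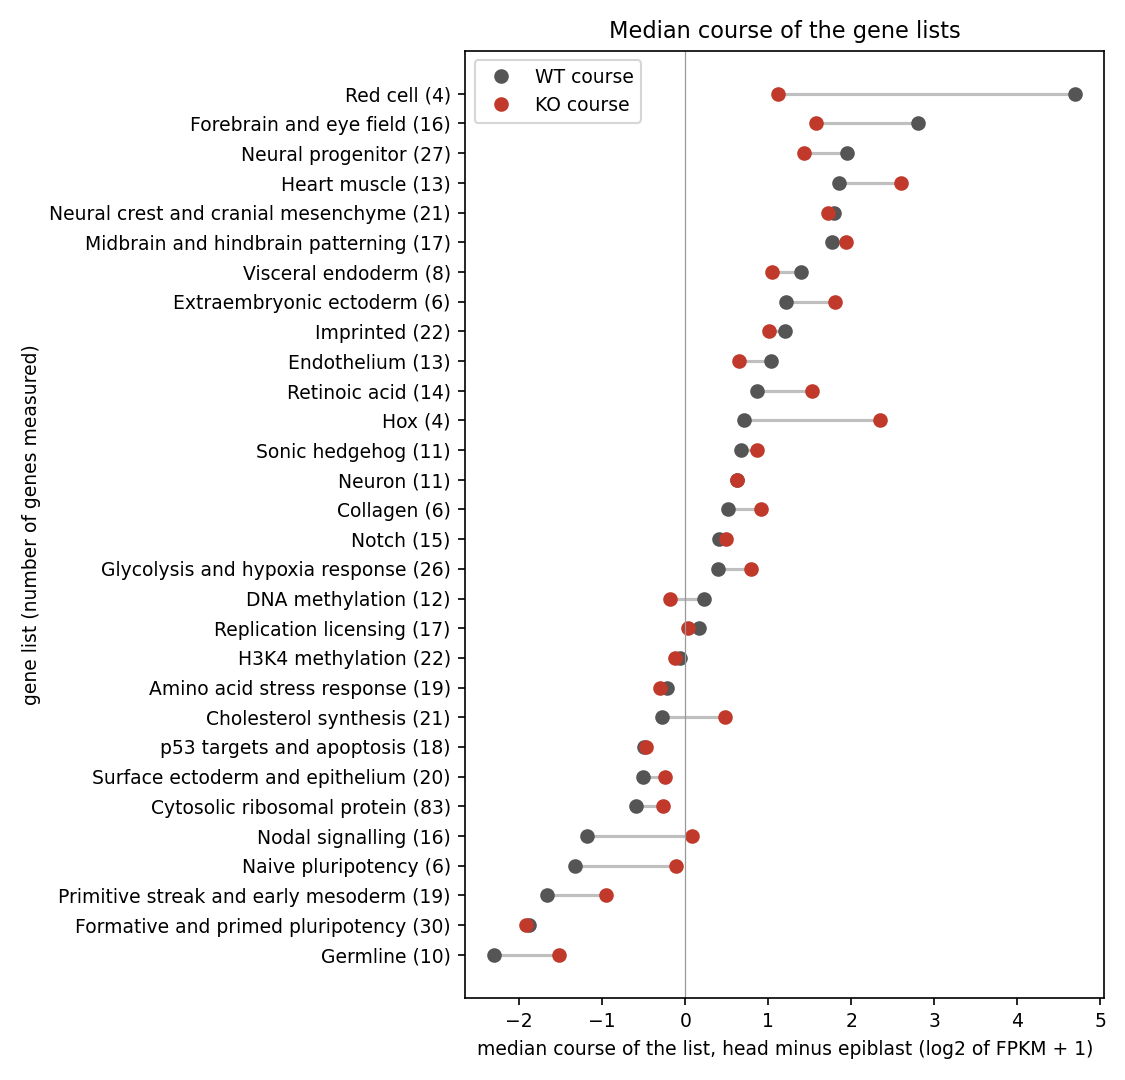
Median course of each of 30 gene lists, head minus epiblast on the log2(FPKM + 1) scale, in grey for WT and red for KO, with the number of genes measured in parentheses. The red cell, Hox, Nodal and forebrain lists show the longest lines between the dots, and the naive pluripotency list is close behind, while the formative and primed pluripotency, neuron and neural crest lists are among the shortest.

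Of 19 streak and early mesoderm genes measured, 12 fell and 2 rose in the WT course and 9 fell and 4 rose in the KO course (medians -1.66 and -0.96). T was at 14.8 FPKM in the WT epiblast and 5.05 in the KO epiblast, Mesp1 at 20.9 and 7.93, and Mixl1 at 138 and 67.3, and all 3 were near 0 to 1.78 FPKM in the heads. Eomes (23.8 and 18.4 FPKM in the epiblasts) fell alike. Wnt8a was at 5.30, 2.44, 0.183 and 5.94 FPKM (WT epiblast, KO epiblast, WT head, KO head) and was higher in the KO head than in either single WT head (0.0433 and 0.916). Of 24 germline genes, most of which are silenced by DNA methylation in the embryo, 10 reached the minimum of 1 FPKM. These fell in both courses (10 of 10 in WT, 9 of 10 in KO, medians -2.30 and -1.52). In the KO head 9 of the 10 were under 1 FPKM, and most reached the minimum only in an epiblast. The direction of their course was thus in part set by that minimum. Sycp3 went from 24.6 to 0.0699 FPKM in the KO, whereas Cyct, a testis cytochrome c gene, kept 9.53 FPKM in the KO head against 0.733 in the WT head.

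Of 22 measured genes of H3K4 methylation, 1 moved 2-fold in the KO course and 0 in the WT course (medians -0.12 and -0.07). Most genes of any kind did not move, as 6.95% rose and 7.04% fell over all genes in the KO course. These counts thus do not set the list apart. The 1 that moved was Wdr82, a subunit of the SET1 complexes, at 23.9 FPKM in the KO epiblast and 11.3 in the KO head. Dpy30, Ash2l, Wdr5 and Psip1, the most abundant, had KO courses of -0.82, 0.12, -0.44 and -0.20. Among DNA methylation genes, Dnmt3b, Dnmt3a and Dnmt3l fell alike, with KO courses of -2.95, -2.60 and -2.48 beside WT courses of -3.45, -2.62 and -2.39.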

How the data were processed

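Expression was read from FPKM tables deposited by the authors. Per the submitters' processing notes, TopHat2 2.0.11, Cufflinks 2.0.2 and Bowtie2 2.2.2 and the build mm9 were used, with no role given for each. The table of the Kmt2b embryos holds 1 column per group with the replicates merged; its sorted columns differ by at most 0.130% at 1 FPKM or more, so they were set to a common distribution and totals cannot show depth. In it, 4 further columns were not used. Courses were differences of log2(FPKM + 1) between head and epiblast; genes needed 1 FPKM in at least 1 of the 4 columns, and 7 genes with doubtful zeros were left out. Genes were called at 2-fold, with no test. The second table, with 1 column per library, was normalized separately and gave the 6 WT pairs, so levels set across the tables are descriptions. Members and gene lists were chosen with earlier results of these data known. Named were the 10 genes with the largest KO course each way, the 20 with the widest gap in each failing class (with at least 5 FPKM in the KO head for those that failed to go down), those at the threshold and the leading genes of 30 lists; others were named after their values were seen. The scripts were tested on simulated data. Alternatives changed the pseudocount, the minimum, the fold and the WT reference.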

Additional observations from a re-analysis of the deposited data

Results flagged for a closer look

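Genes with at least 5 FPKM in 1 or more of the 4 columns whose course was at least 2-fold one way in WT and at least 2-fold the other way in KO are given here with the KO course minus the WT course on the log2 scale. Each rests on 1 merged column per group, and the difference was not tested. Cyp26a1 (3.47), Fst (2.997), Cfc1 (3.39), Wnt8a (3.42) and Nptx2 (3.45), a secreted pentraxin gene, fell in WT and rose in KO. Oaz1-ps (9.64), a pseudogene that may share reads with its parent gene, did the same. Amd2 (-5.55) rose in WT and fell in KO, and shares sequence with Amd1. So did the histone genes Hist2h3b (-4.27), Hist1h2ak (-4.02), Hist1h4c (-3.75), Hist1h4m (-3.67), Hist2h3c2 (-3.34), Hist2h2ac (-2.96), Hist1h2bm (-2.90), Hist1h4j (-2.62), Hist1h3b (-2.58), Hist1h2bb (-2.39), Hist1h2bg (-2.37) and Hist1h3d (-2.14), whose copies are nearly identical.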

How the results depend on the processing

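No paired analysis was possible because the merged columns carry no replicate. For the same reason no Kmt2b KO or WT replicate could be left out of them. Promoter methylation was not run, since its files use mm9 coordinates and the reference used here is GRCm38. Counts moved with the settings. Genes higher in the KO head (779) numbered 1236 with a pseudocount of 0.1, 266 with 5 and 504 at a minimum of 5 FPKM; lower ones (789) 1283, 248 and 521. In the WT course, higher genes (809) numbered 1265, 278 and 508, and lower ones (809) 1234, 265 and 516. The class that failed to go down (76) held 30 genes with a pseudocount of 5, 19 at 3-fold, 48 at 10 FPKM and 138 with the WT course of the second table, and 140, 132 and 143 without WT epiblast replicate 1, 2 and 3 of that table and 142 and 171 without its WT head replicate 1 and 2. The class that failed to come up (65) held 39 with a pseudocount of 5 and 39 at 3-fold. It held 37 without copies, clone names, Xist and Y-linked genes, and 93 with the WT course of the second table. When 1 library of that table was left out, it held from 81 (without WT head replicate 1) to 124 (without WT head replicate 2). Without WT epiblast replicate 3 it held 101. Genes with a KO course only, lower (57), numbered 32 with a pseudocount of 5, 22 at 3-fold and 37 at 10 FPKM, and higher (62) 31 and 23 under the first 2 of these. With the WT course of the second table, 66 of the 76 and 48 of the 65 genes were shared with the main classes, and the gap reversed for Hba-x (0.79), Hbb-bh1 (1.79) and Hbb-y (1.31). Peg12 reversed with a pseudocount of 0.1 (0.058). The cause was not tested.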

Other observations

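Genes of cholesterol synthesis were higher in the KO head than in the WT head in several cases. Of 21 measured, 3 rose in the KO course and 0 in the WT course, 0 and 2 fell, and the median course was 0.48 in KO and -0.28 in WT. The KO course was at least 2-fold above the WT course for 8 of them and below it for 0. Over all genes these shares were 3.73% and 3.63%. For this and the other lists here, the all-gene shares were 6.95% up and 7.04% down in the KO course and 7.21% each way in WT. Sc4mol, a sterol oxidase gene, was at 20.3, 23.3, 16.8 and 59.5 FPKM (WT epiblast, KO epiblast, WT head, KO head). Insig1, which holds the pathway in check, was at 13.7, 16.3, 7.84 and 26.0, in the same order. The epiblast levels of both genes were close, and the KO head was the highest column.

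Of 26 glycolysis and hypoxia genes, 7 rose in the KO course and 2 in the WT course, with 1 falling in each, and the medians were 0.79 and 0.40. The glucose transporter gene Slc2a3 reached 179 FPKM in the WT head and 415 in the KO head. Of 22 imprinted genes, 11 rose in KO and 14 in WT, with medians of 1.005 and 1.20. Phlda2, a placental growth regulator, was at 30.7 FPKM in the WT head and 77.5 in the KO head, and Peg12 at 36.6 and 10.9.

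Of 6 naive pluripotency genes, 3 fell and 1 rose in KO and 4 fell in WT (medians -0.11 and -1.33). Of 20 surface ectoderm genes, 8 rose in each course, and 5 fell in KO and 7 in WT. Of 11 neuron genes, 3 rose and 3 fell in KO and 5 rose and 1 fell in WT, Isl1, a motor neuron and heart factor, reaching 6.68 FPKM in the WT head and 16.7 in the KO head. Notch genes (15) rose for 5 in KO and 6 in WT, and Sonic hedgehog genes (11) for 4 in each. Of 6 collagen genes 3 rose in KO and 1 in WT, and of 19 amino acid stress genes 4 fell in KO and 3 in WT.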
